A study of Arabidopsis thaliana with 12 samples.

Results

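The transcripts of 6 genes were followed through 6 Arabidopsis thaliana genotypes: ICS1 and EDS5, which act in the synthesis of salicylic acid, PAD4 and SAG101, partners of the immune regulator EDS1, and the genes GRX480 and AT5G52810. They were chosen by name, with earlier results of these data known, and make up 6 of the 22746 probe sets on the ATH1 array that are not controls. SAG101 (AT5G14930, chromosome 5), GRX480 (AT1G28480, chromosome 1) and AT5G52810 (chromosome 5) are named by the platform annotation. The probe sets read as ICS1 (AT1G74710, chromosome 1), EDS5 (AT4G39030, chromosome 4) and PAD4 (AT3G52430, chromosome 3) were assigned to those genes in the choice of members, since the annotation used here lists no gene for them. EDS1 itself had no named probe set and is not analysed here.

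Transcript levels were measured in total RNA from the aerial parts of plants 2 weeks old, kept at 23 C, 70% humidity and a day length of 16 h. The 12 arrays comprised 2 for each genotype: the Columbia wild type (WT, stock N1092), cpr5 (stock N3770), npr1 (stock N3726), cpr5npr1, cpr5scv1 and cpr5npr1svi1. No treatment or infection is given for any group. The labels describe cpr5npr1 plants as fully resistant to P. parasitica, a downy mildew. They describe cpr5scv1 plants as being as susceptible to it as the wild type, a little more susceptible to P. syringae, and resistant to B. cinerea. In them, svi1 is given only as part of a combination of 3 mutations. The labels name no allele beyond the stocks, do not say whether scv1 and svi1 were each carried by 1 line, and do not say whether the arrays of a genotype came from separately grown plants. The p-values therefore rest on the spread between arrays of a genotype, part or all of which may be technical.

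Salicylic acid is the hormone of defence against pathogens that feed on living tissue. In Arabidopsis most of it is made in the chloroplast by isochorismate synthase, encoded by ICS1, and EDS5 exports the precursor to the cytosol. EDS1 forms alternative complexes with PAD4 or with SAG101 that relay signals from intracellular immune receptors, and the EDS1-PAD4 pair raises ICS1 expression in a feedback loop. GRX480 is a glutaredoxin that binds TGA transcription factors and is itself induced by salicylic acid. NPR1 helps to switch on genes that respond to this hormone. Whether the induction of GRX480 needs NPR1 is not taken as given here. The cpr5 mutant keeps defence genes active and forms lesions without a pathogen.

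Levels are given as deposited, as linear MAS5 signal. A background of 7.76 was taken from 27 bacterial control sets. Between 76.9% and 77.3% of probe sets exceeded it in the arrays without cpr5, and between 77.9% and 79.5% in those with cpr5. The median signal was 36.8 to 38.8 in the arrays without cpr5 and 41.3 to 43.5 in those with it. CPR5 and NPR1 had no named probe set, so the genotype labels could not be checked against the mutated genes. Of 25 marker genes listed for leaf, root, flower, guard cells and senescing leaf, 5 had a named probe set, none of them a flower or senescence marker. The leaf gene RCA had a mean signal from 4230 to 6000 over genotypes, the root hair gene EXPA7 from 6.25 to 12.1, and PYK10, a gene best known from roots, from 341 to 711. The guard cell genes GC1 and FAMA had means of 237 to 401 and of 55.2 to 75.4. None of RCA, PYK10, GC1 and FAMA, the markers bright enough to test, was called between the genotypes with cpr5 and those without it. GC1 was lower in cpr5scv1 than in WT with the replicate number as a block (log2 difference -0.76, adjusted p = 0.00546), and not called without it (0.0888). Its part in the results for cpr5scv1 was not tested. In whole aerial tissue, fewer cells of a type and less RNA per cell cannot be told apart.

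ICS1 was low in the genotypes without cpr5 and higher in each genotype with it. Its signal was 52.9 and 31.9 in WT and 36.3 and 34.9 in npr1. It was 154 and 194 in cpr5, 549 and 171 in cpr5npr1, 289 and 326 in cpr5scv1, and 259 and 226 in cpr5npr1svi1. The lowest array with cpr5 was 2.91-fold above the highest array without it, and the brightest of all was cpr5npr1 replicate 1.

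EDS5, the exporter of the precursor made by ICS1, had the same division. Its signal was 20.6 and 28.3 in WT and 31.3 and 38.2 in npr1. With cpr5 it was 110 and 119, in cpr5npr1 253 and 80.4, in cpr5scv1 208 and 162, and in cpr5npr1svi1 174 and 143. The npr1 arrays lay above the WT arrays without overlap, but npr1 and WT were not called different (adjusted p = 0.987 in limma). Here too the highest value came from cpr5npr1 replicate 1, and replicate 2 of that genotype was the lowest array with cpr5.

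PAD4, a lipase-like protein that works with EDS1, was below background in every array without cpr5. The signal was 1.73 and 5.38 in WT and 4.43 and 3.43 in npr1. It was 81.5 and 75.3 in cpr5, 219 and 57.6 in cpr5npr1, 198 and 147 in cpr5scv1, and 66.3 and 41.7 in cpr5npr1svi1. The mean over all 12 arrays was above the level under which the dimmest 30% of probe sets were left out, a mean signal of 12.6, only through the arrays with cpr5. Its differences from WT and npr1 are therefore given as lower bounds, with arrays below background raised to 7.76. The adjusted p-values printed for PAD4 come from the limma fit to the deposited signal and do not test these bounds. PAD4 is counted among the genes called with that limit.

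SAG101, the alternative partner of EDS1, changed least in fold terms among ICS1, EDS5, PAD4 and itself. Its signal was 16.8 and 22.4 in WT, and 15.8 and 15.7 in npr1. It was 46.1 and 39.8 in cpr5, 80.1 and 37.5 in cpr5npr1, 66.6 and 78.6 in cpr5scv1, and 36.4 and 45.6 in cpr5npr1svi1. The arrays with and without cpr5 did not overlap, with a gap of 1.63-fold between the nearest.

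GRX480 showed the widest spread between arrays without cpr5. Its signal was 23.1 and 13.2 in WT, and 5.56 and 37.2 in npr1, where replicate 1 lay below background. It reached 132 and 139 in cpr5 and 201 and 160 in cpr5scv1, against 82.7 and 46.9 in cpr5npr1 and 83.3 and 87.9 in cpr5npr1svi1. The lowest array with cpr5, cpr5npr1 replicate 2, was only 1.26-fold above npr1 replicate 2.

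AT5G52810 carries no name beyond its locus code in the annotation. It had a signal of 31.5 and 71.8 in WT, and 54.1 and 67.9 in npr1. It was 157 and 181 in cpr5, 187 and 126 in cpr5npr1, 178 and 177 in cpr5scv1, and 100 and 108 in cpr5npr1svi1. The arrays of the genotypes with cpr5 all lay above those without it, by at least 1.4-fold, and cpr5npr1svi1 was the lowest genotype with cpr5.

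**Figure D1:**
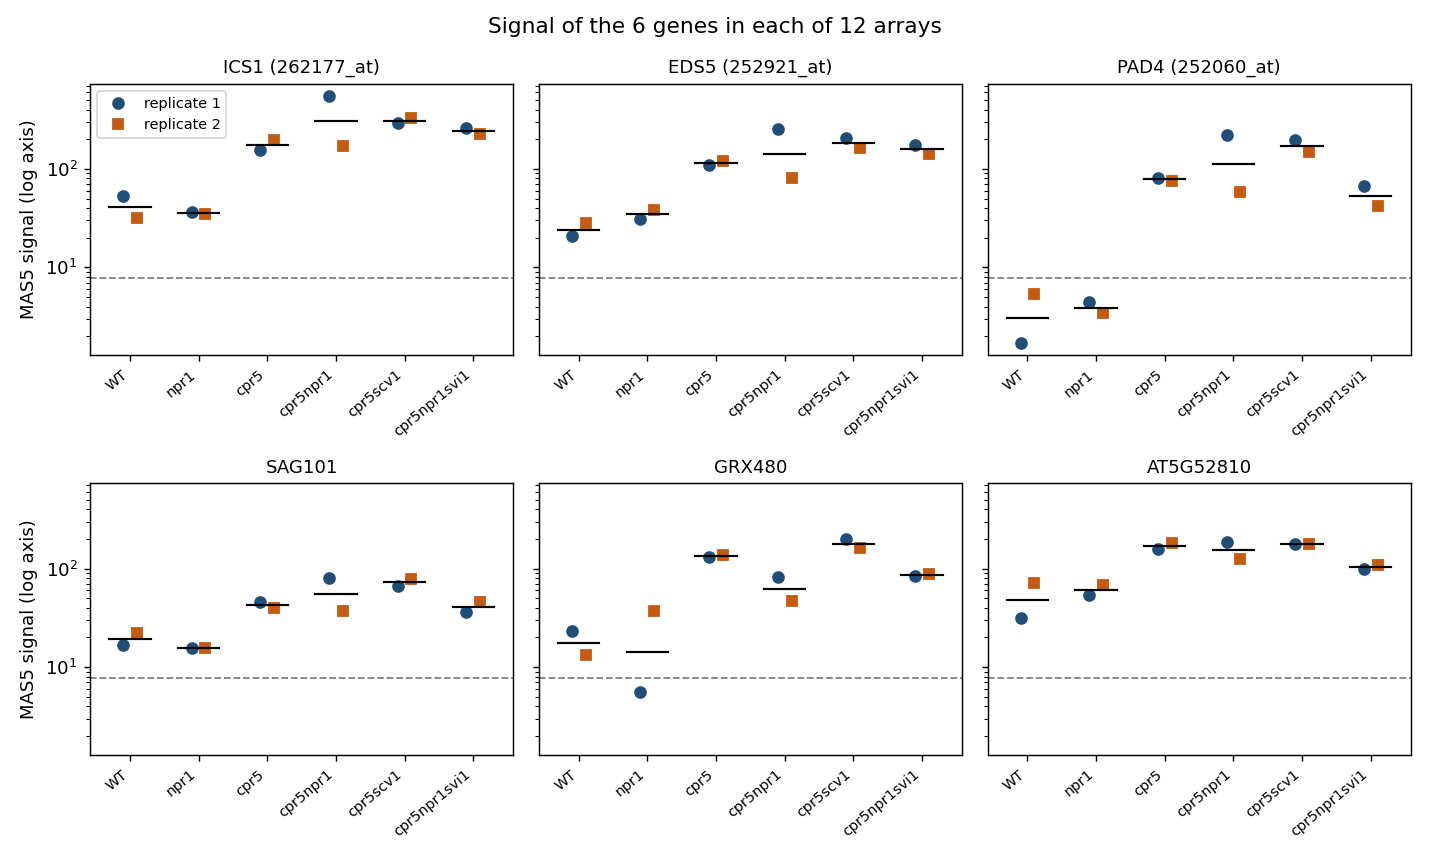
MAS5 signal on a log axis for the 6 genes in each genotype, with circles for replicate 1, squares for replicate 2, a bar at their geometric mean and a dashed line at the background of 7.76. All 8 arrays with cpr5 lie above all 4 without it in every panel, and PAD4 lies below background in WT and npr1.

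For each of the 6 genes, the 8 arrays with cpr5 lay above the 4 arrays without it. Over all 15922 probe sets tested, 9.31% were separated in this way. In limma, the mean of the 4 genotypes with cpr5 was compared with the mean of WT and npr1, and 6 of 6 genes rose, against 15.4% of all probe sets called higher. The log2 difference was 2.71 (SE 0.264, adjusted p = 3.51e-05) for ICS1 and 2.35 (SE 0.256, adjusted p = 8.24e-05) for EDS5. It was 1.56 (SE 0.205, adjusted p = 0.000309) for SAG101, 2.75 (SE 0.41, adjusted p = 0.0007) for GRX480 and 1.46 (SE 0.203, adjusted p = 0.000442) for AT5G52810. PAD4, with every array of WT and npr1 below background, had an adjusted p of 8.8e-06. These calls held under each of the 19 other settings in which the gene was tested, with adjusted p from 1.9e-06 to 0.00403; a filter of 50% left PAD4 and SAG101 untested.

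The comparison of cpr5 with WT asks what cpr5 changes in plants with functional NPR1. Of the 6 genes, 5 rose, where 6.56% of all probe sets were called higher. ICS1 rose 4.21-fold (log2 difference 2.07, SE 0.431, adjusted p = 0.014) and EDS5 rose 4.73-fold (2.24, SE 0.418, adjusted p = 0.00805). PAD4 was at least 10.1-fold higher (adjusted p = 0.00117). GRX480 rose 7.74-fold (adjusted p = 0.0211) and AT5G52810 rose 3.55-fold (adjusted p = 0.00708). SAG101 had a mean signal of 43 ± 4.46 in cpr5 and 19.6 ± 3.96 in WT (SD, n = 2 each) and an adjusted p of 0.0606, or 0.0394 with the replicate number as a block. With that block 6 of 6 genes were called higher, beside 10.5% of all probe sets. The median log2 difference of the 6 genes was 2.16, and that of all probe sets 0.02.

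The differences between cpr5 and WT were positive in both replicates for each gene. In replicate 1 and replicate 2 they were 1.54 and 2.6 for ICS1, 2.41 and 2.07 for EDS5, and 1.46 and 0.83 for SAG101 on the log2 scale. For GRX480 they were 2.51 and 3.39, and for AT5G52810 2.32 and 1.34. The call of PAD4, whose WT arrays all lay below background, held when any 1 array was left out. That of ICS1 needed WT replicate 2 (adjusted p = 0.0584 if omitted) and both cpr5 arrays (0.0588 and 0.0983 if replicate 1 or 2 was omitted), and that of GRX480 needed the same 3 arrays (0.0778, 0.105 and 0.109). Those of EDS5 and AT5G52810 were lost without cpr5 replicate 2 (0.0603 and 0.0609), and that of AT5G52810 also when only cpr5 and WT were fitted (0.0724). SAG101 was called without cpr5npr1 replicate 1 (0.0221) or replicate 2 (0.02). Without cpr5 replicate 2, only PAD4 was called.

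In plants that carried npr1, the rise of ICS1, EDS5, PAD4 and SAG101 was again present. Against npr1, cpr5npr1 had 5 of 6 genes called higher, where 4.32% of all probe sets were. ICS1 rose 8.62-fold (log2 difference 3.11, SE 0.431, adjusted p = 0.00187) and EDS5 4.12-fold (2.04, SE 0.418, adjusted p = 0.0173). PAD4 was at least 14.5-fold higher (adjusted p = 0.00109). SAG101 rose 3.48-fold (1.8, SE 0.335, adjusted p = 0.0103), and AT5G52810 rose 2.53-fold (adjusted p = 0.0447). GRX480 had 64.8 ± 25.3 against 21.4 ± 22.4 (SD, n = 2 each) and was not called (adjusted p = 0.116). The median log2 difference was 2.08, or 1.96 with PAD4 and GRX480 at their bounds, and 0 over all probe sets. The SEs assume the same spread in every genotype, while the log2 SD of ICS1 was 1.19 in cpr5npr1 and 0.04 in npr1.

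The calls of ICS1 and of PAD4, whose npr1 arrays all lay below background, held between cpr5npr1 and npr1 when any 1 array was left out. EDS5 was lost without npr1 replicate 1 (adjusted p = 0.13), npr1 replicate 2 (0.0654) or cpr5npr1 replicate 1 (0.0684), and in a fit of those genotypes alone (0.0625). SAG101 was lost without the same 3 arrays (0.0663, 0.0594 and 0.0912). The call of AT5G52810 survived the omission of a WT array but of no other (0.0533 to 0.325). It was also lost after quantile normalization (0.0599), scaling to one median (0.0699), no filter (0.0552) or no intensity trend (0.07). Without npr1 replicate 2, the npr1 array in which it was bright, GRX480 had a log2 difference of 3.48. That value rests on npr1 replicate 1 alone, with a signal of 5.56, below background. Its SE went from 0.669 to 0.398, as the spread between the npr1 arrays no longer entered.

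The size of the cpr5 effect was not shown to differ between plants with and without functional NPR1 for any of the 6 genes. The interaction, the cpr5 effect in npr1 plants minus that in NPR1 plants, gave 0 calls among them (0 at an unadjusted p under 0.05) and called 0.0251% of all probe sets in limma. Its log2 value was 1.03 for ICS1 (95% interval -0.31 to 2.38) and -0.2 for EDS5 (-1.5 to 1.11). For PAD4, below background in all WT and npr1 arrays, it has no measurable size. It was 0.65 for SAG101 (-0.39 to 1.7), -0.84 for GRX480 (-2.93 to 1.25, with npr1 replicate 1 below background) and -0.49 for AT5G52810 (-1.53 to 0.55). Each of these 5 intervals spans 0 and reaches beyond a 2-fold difference in at least 1 direction.

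**Figure D2:**
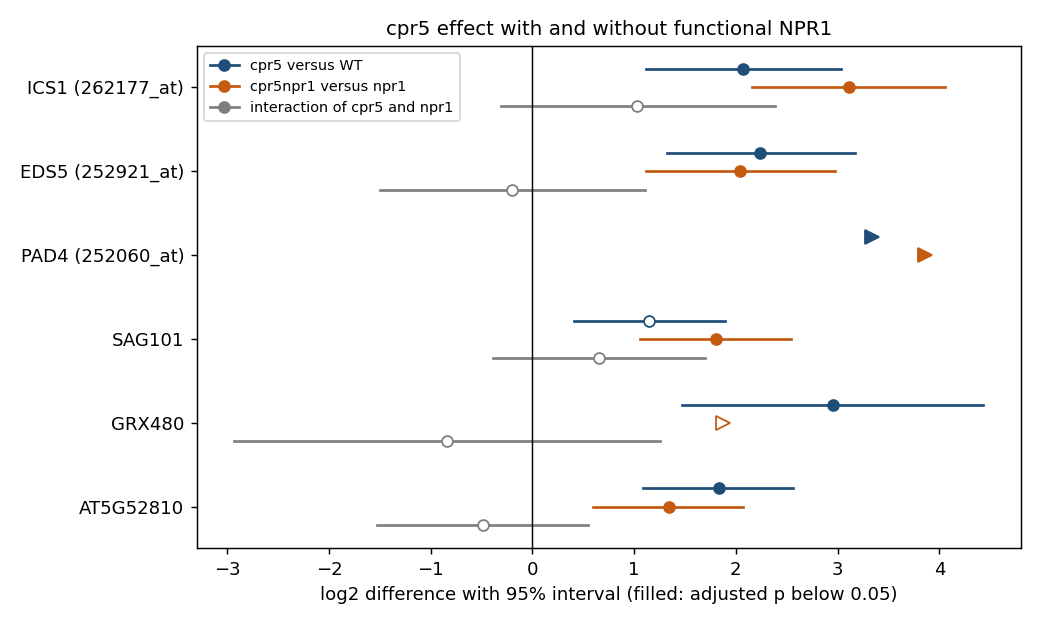
Log2 difference with its 95% interval for the 6 genes, for cpr5 versus WT, cpr5npr1 versus npr1 and their interaction; filled points have an adjusted p below 0.05. Triangles mark lower bounds, used where arrays of the dimmer genotype lie below background; the interaction of PAD4 is not drawn, and the other 5 interaction intervals span 0.

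With npr1 alone, none of the 6 genes was called against WT, and none at an unadjusted p under 0.05, in a comparison that called 0.00628% of all probe sets in limma. The log2 differences were -0.21 for ICS1 (95% interval -1.16 to 0.75), 0.52 for EDS5 (-0.41 to 1.44) and -0.3 for SAG101 (-1.04 to 0.44). AT5G52810 had 0.35 (-0.38 to 1.08). PAD4 was below background in both genotypes. GRX480 differed by -2.05 in replicate 1 and by 1.5 in replicate 2 on the log2 scale, so that its arrays gave opposite directions.

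The comparison of cpr5npr1 with cpr5 likewise called 0 of the 6 genes (0 at an unadjusted p under 0.05) and 0.044% of all probe sets in limma. The log2 difference was 0.83 for ICS1 (95% interval -0.12 to 1.78), 0.32 for EDS5 (-0.6 to 1.24), 0.52 for PAD4 (-0.84 to 1.88) and 0.35 for SAG101 (-0.38 to 1.09). Each of these was positive in replicate 1 and negative in replicate 2. Without cpr5npr1 replicate 1 they were -0.01, -0.51, -0.44 and -0.19. GRX480 was the member with the largest difference in size, -1.12 (-2.6 to 0.36), and was lower in both replicates, by 0.67 and 1.56. AT5G52810 had -0.14 (-0.87 to 0.6).

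Replicate 1 of cpr5npr1 stood above replicate 2 for each member. The ratio was 3.21-fold for ICS1, 3.14-fold for EDS5, 3.8-fold for PAD4 and 2.14-fold for SAG101. Of all probe sets tested, 2.99% were more than 2-fold higher in that array than in replicate 2, and the median probe set differed by 1.02-fold. The ratio was 1.76-fold for GRX480 and 1.49-fold for AT5G52810. In cpr5 the arrays differed by no more than 1.26-fold for any of the 6 genes, and in cpr5scv1 by no more than 1.34-fold. What moved these genes between the cpr5npr1 arrays was not tested. Against WT, cpr5npr1 had 5 of 6 genes called higher, beside 6.09% of all probe sets. Without cpr5npr1 replicate 1, SAG101 (adjusted p = 0.172) and AT5G52810 (0.117) were lost, and 3 were called. SAG101 was also lost without WT replicate 1 (0.0992). GRX480, with an adjusted p of 0.133 in limma, was called with a pseudocount of 32 (0.0495). Without npr1 replicate 1 or 2 its log2 difference stayed at 1.84, while its SE went from 0.669 to 0.321 or 0.325. The npr1 arrays enter that comparison only through the shared spread.

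**Figure D3:**
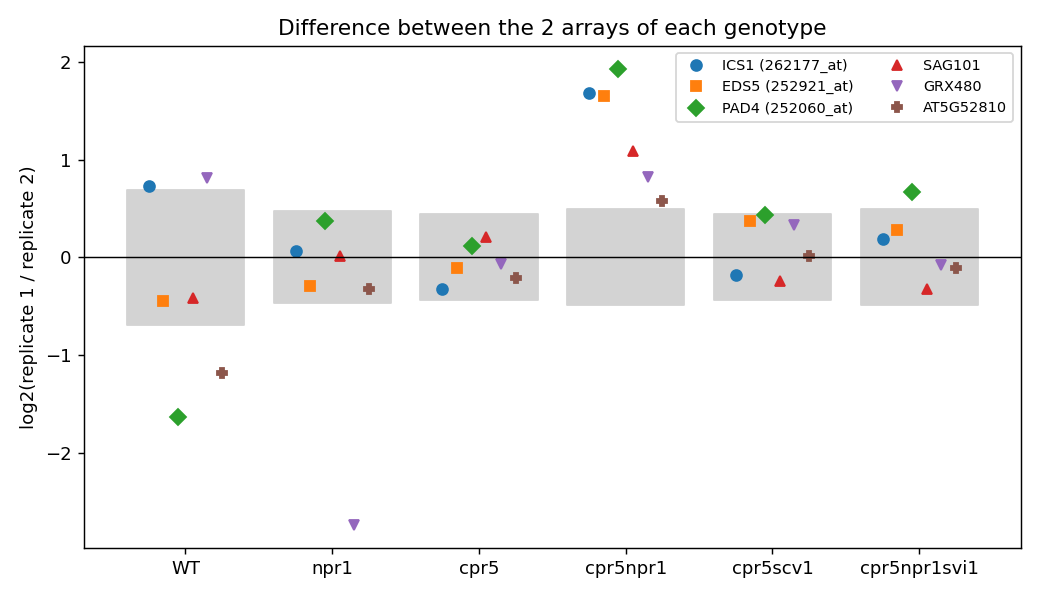
Log2 ratio of replicate 1 to replicate 2 for the 6 genes in each genotype, with a grey band of 1 SD of that ratio over all probe sets tested. In cpr5npr1 all 6 genes lie above 0, with PAD4, ICS1 and EDS5 more than 3-fold higher in replicate 1; GRX480 in npr1 lies 6.69-fold lower in replicate 1.

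Plants with scv1 kept the high levels of cpr5 plants. Against WT, cpr5scv1 had 6 of 6 genes called higher, beside 12.8% of all probe sets, and none of these calls was lost with an omitted array or under another setting in which the gene was tested. ICS1 rose 7.48-fold (adjusted p = 0.000974), EDS5 7.59-fold (adjusted p = 0.000782), SAG101 3.74-fold (adjusted p = 0.00259) and GRX480 10.3-fold (adjusted p = 0.00511). AT5G52810 and PAD4 rose too. PAD4 was at least 22-fold higher (adjusted p = 0.000126). AT5G52810 rose 3.74-fold (adjusted p = 0.0025). This comparison shares its WT arrays with that of cpr5.

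Against cpr5, all 6 genes had positive log2 differences in cpr5scv1, and 0 were called, where 0.804% of all probe sets were called in limma. SAG101 was the 1 gene of the 6 at an unadjusted p under 0.05 (adjusted p = 0.421), with a log2 difference of 0.76 (95% interval 0.02 to 1.49). The difference was 0.83 for ICS1 (-0.12 to 1.78), 0.68 for EDS5 (-0.24 to 1.61) and 1.12 for PAD4 (-0.24 to 2.48). For these 4 genes and GRX480 both cpr5scv1 arrays lay above both cpr5 arrays, as they did for 20.4% of all probe sets, and the difference was positive in both replicates. PAD4 was called when only cpr5scv1 and cpr5 were fitted (adjusted p = 0.0452). GRX480 had 0.41 (-1.07 to 1.89), and AT5G52810 had 0.08 (-0.66 to 0.81). The lower ends of the intervals of ICS1, EDS5, PAD4, SAG101 and AT5G52810 lie above -1, so a fall to less than the cpr5 level divided by 2 lies outside them.

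The addition of svi1 to cpr5npr1 gave no call among the 6 genes, and none at an unadjusted p under 0.05, where 1.15% of all probe sets were called in limma. The log2 difference was -0.34 for ICS1 (95% interval -1.29 to 0.61), 0.15 for EDS5 (-0.78 to 1.07), -1.09 for PAD4 (-2.46 to 0.27) and -0.43 for SAG101 (-1.17 to 0.31). It was 0.46 for GRX480 (-1.02 to 1.94) and -0.56 for AT5G52810 (-1.29 to 0.18). PAD4 and AT5G52810 were lower with svi1 in both replicates, by 1.72 and 0.47 and by 0.9 and 0.21. For ICS1, EDS5 and SAG101 the difference was negative in replicate 1 and positive in replicate 2. Without cpr5npr1 replicate 1, ICS1 had 0.5 and SAG101 had 0.12, and without replicate 2, EDS5 had -0.68.

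**Figure D4:**
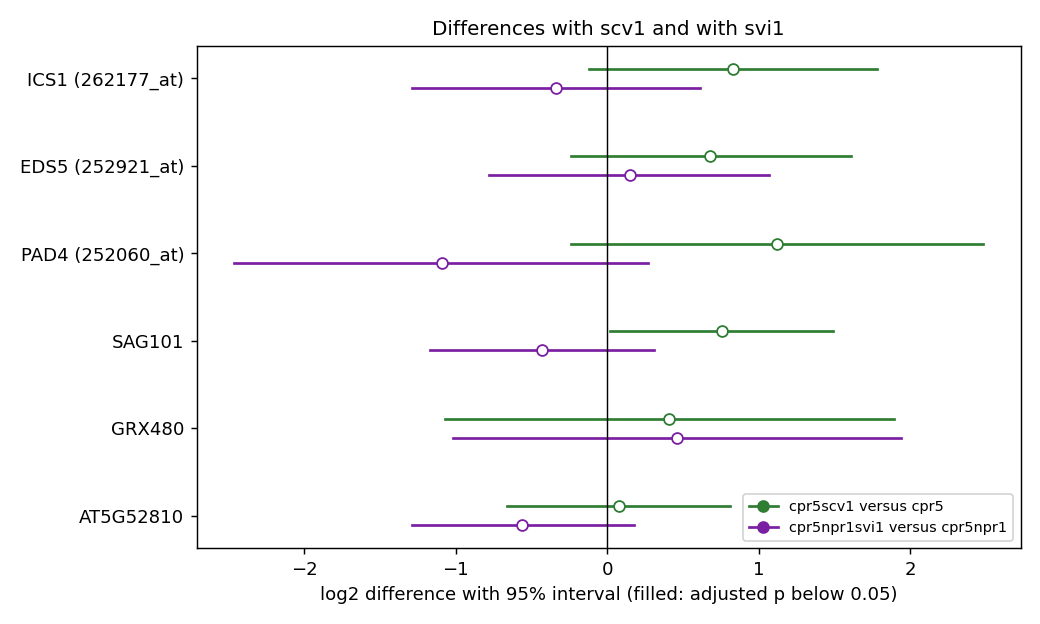
Log2 difference with its 95% interval for the 6 genes, for cpr5scv1 versus cpr5 and cpr5npr1svi1 versus cpr5npr1; open points have an adjusted p of 0.05 or more. All 6 scv1 differences are above 0, and 4 of the 6 svi1 differences are below it.

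Against WT, cpr5npr1svi1 still had 4 of 6 genes called higher, beside 7.88% of all probe sets, and 6 with the replicate number as a block, beside 12.2% of all probe sets. ICS1 rose 5.89-fold (adjusted p = 0.00371) and EDS5 6.54-fold (adjusted p = 0.00244), while PAD4 was higher by at least 6.78-fold (adjusted p = 0.00207). GRX480 rose 4.9-fold (adjusted p = 0.0495), a call that survived the omission of an npr1 array but of no other (0.0603 to 0.197). It was also lost after quantile normalization (0.0724), scaling to one median (0.0608), no filter (0.0653) and no intensity trend (0.0739). AT5G52810 had 104 ± 5.45 against 51.6 ± 28.5 in WT (adjusted p = 0.0507), 0.0256 with the block, 0.0465 with a filter of 50% and 0.00189 without WT replicate 2. SAG101 had 41 ± 6.51 against 19.6 ± 3.96 (SD, n = 2 each; adjusted p = 0.0638), 0.0441 with the block, and 0.0244 and 0.0225 without cpr5npr1 replicate 1 or 2.

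Ordered by mean log2 signal, cpr5scv1 was first of the 6 genotypes for EDS5, PAD4, SAG101, GRX480 and AT5G52810. For ICS1 it tied with cpr5npr1 (log2 gap 0, adjusted p = 1), which had the higher mean signal, 360 ± 267 against 308 ± 26.4 (SD, n = 2 each). For ICS1, EDS5, PAD4 and SAG101 no neighbours among the 4 genotypes with cpr5 were called different (adjusted p from 0.714 to 1), and the same held for GRX480 and AT5G52810 (0.663 to 1). Neighbours in such an order lie close by construction. From cpr5scv1 to cpr5npr1svi1 the log2 difference was -1.7 for PAD4 (adjusted p = 0.24 in limma), -0.83 for SAG101 (0.302) and -0.77 for AT5G52810 (0.342). From cpr5npr1 to cpr5scv1 it was 1.52 for GRX480 (0.395). Each had an unadjusted p under 0.05, and none was called. The step from the lowest genotype with cpr5 to the higher of WT and npr1 was called for ICS1 (from cpr5 to WT, log2 gap 2.07, adjusted p = 0.014) and for EDS5 (from cpr5 to npr1, 1.73, adjusted p = 0.0325). For PAD4 it was called between cpr5npr1svi1 and npr1 (adjusted p = 0.00418). For SAG101 the step was 1.07 between cpr5npr1svi1 and WT (adjusted p = 0.0638), for GRX480 1.84 between cpr5npr1 and WT (0.133), and for AT5G52810 0.78 between cpr5npr1svi1 and npr1 (0.199), and none of these was called. WT and npr1 were not called different for any of the 6 genes. The lowest genotype with cpr5 was thus cpr5 for ICS1 and EDS5, cpr5npr1 for GRX480, and cpr5npr1svi1 for PAD4, SAG101 and AT5G52810.

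Among the 8 arrays with cpr5, which share genotypes in pairs, ICS1, EDS5, PAD4 and SAG101 varied together. Their 6 pairs had Pearson's r from 0.7 to 0.889, highest for ICS1 and EDS5 (Spearman's rho 0.905). Without cpr5npr1 replicate 1, over 7 arrays, the 6 pairs had r from 0.556 to 0.846. The other 9 pairs had r from 0.115 to 0.784 over 8 arrays, with the lowest for ICS1 and GRX480, and from 0.0956 to 0.78 over 7. ICS1 and GRX480 rose to 0.466 in the 7 arrays, and PAD4 and GRX480 went from 0.504 to 0.78. In the 7 arrays EDS5 had r = 0.658 with GRX480, above its 0.566 with PAD4 and 0.556 with SAG101. Over the 8 arrays, PAD4 and AT5G52810 had r = 0.784, within the range of the 6 pairs, and SAG101 and AT5G52810 had 0.683. ICS1, EDS5, PAD4 and SAG101 were thus not set apart from AT5G52810 in the 8 arrays, nor from GRX480 in the 7. The values describe these arrays, and replicates of a genotype are not independent of its level.

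**Figure D5:**
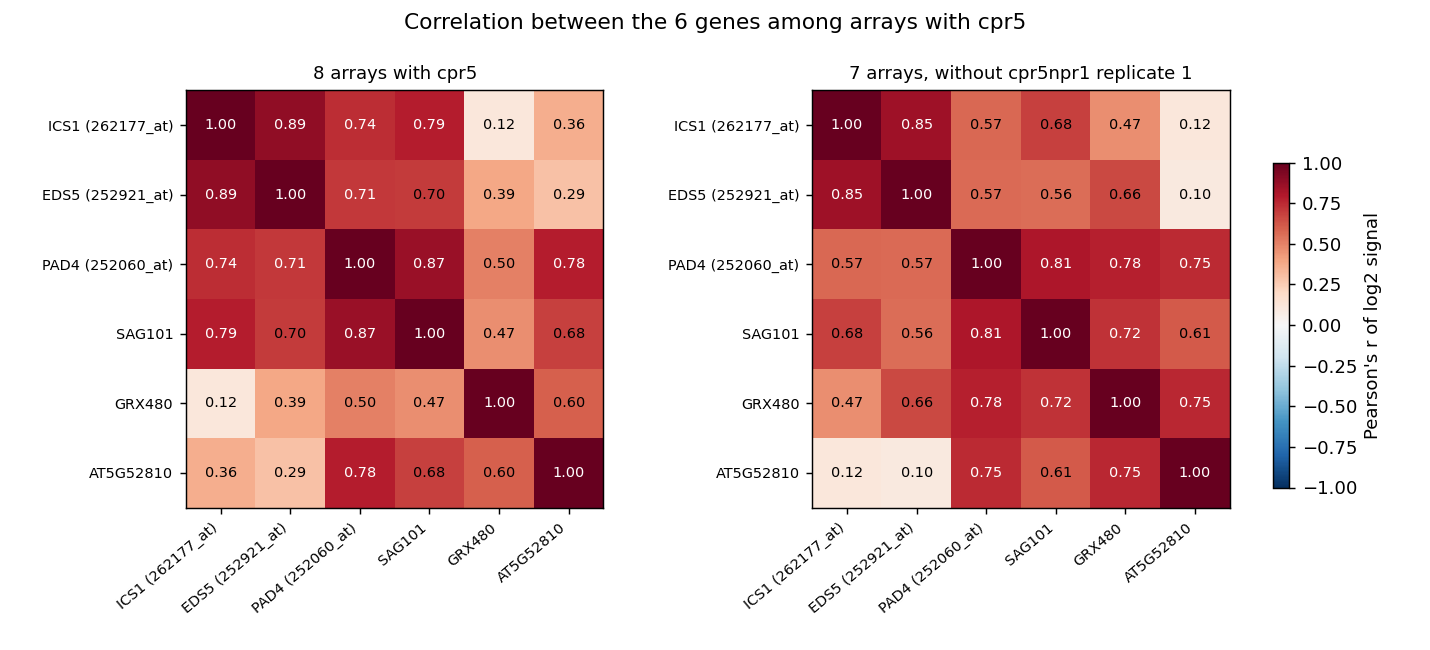
Pearson's r of log2 signal between the 6 genes over the 8 arrays with cpr5 (left) and over 7 of them without cpr5npr1 replicate 1 (right). In the left panel ICS1, EDS5, PAD4 and SAG101 correlate at 0.7 or more, and GRX480 and AT5G52810 less closely with ICS1 and EDS5. There PAD4 correlates at 0.784 with AT5G52810. In the right panel EDS5 correlates at 0.658 with GRX480 and at 0.566 with PAD4.

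Named genes with the most similar pattern over all 12 arrays were found by Pearson's r of log2 signal, a likeness that the division by cpr5 largely sets. For ICS1 they were AT1G55790 (r = 0.985), AT1G57630 (0.98) and AT1G43910 (0.979). For EDS5 they were AT5G39670 (0.977), Hsp70-2 (0.974) and NDB2 (0.973). For PAD4 they were AT1G35710 (0.988), AT4G00700 (0.987) and AT1G17600 (0.984). AT1G35710 had means of 20.3 ± 8.75 in WT, 23.5 ± 4.57 in npr1, 653 ± 193 in cpr5, 544 ± 301 in cpr5npr1, 897 ± 262 in cpr5scv1 and 263 ± 99.6 in cpr5npr1svi1 (SD, n = 2 each). As for PAD4, cpr5scv1 was the highest and cpr5npr1svi1 the lowest of the genotypes with cpr5, in a gene picked for its likeness to PAD4. For SAG101 they were AT5G15870 (0.968), AT3G45620 (0.968) and AT2G20320 (0.965), for GRX480 AT1G72920 (0.964), AT3G50280 (0.962) and AT3G57630 (0.952), and for AT5G52810 AT3G44400 (0.989), AT5G24210 (0.989) and CuAO1 (0.98). In the ranking of all other probe sets tested by likeness to ICS1, EDS5 stood at place 44, PAD4 at 99 and SAG101 at 107, and GRX480 and AT5G52810 at 995 and 1077. Like PAD4, some of the genes named as alike had means below background without cpr5. AT4G00700 had 4.89 in WT and 5.97 in npr1, and AT1G57630 had 2.24 and 1.07. Their r rests in part on such values.

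Lists of salicylic acid synthesis, modification, reception and response, the EDS1 node and pipecolic acid metabolism, 6 in all, held 61 genes. Of these, 12 had a probe set named by the annotation or assigned in the choice of members, the 6 members included, and 9 were tested. The annotation lists no gene for 8730 probe sets, so a listed gene without a named probe set may still be on the array. In the synthesis list, 2 of 11 genes were tested, ICS1 and EDS5, both described above. In the list of the EDS1 node and its helper receptors, 3 of 9 genes were tested. The one that is no member, AT3G48080, lies beside EDS1 on chromosome 3. It had 8.66 and 4.15 in WT and 5.52 and 5.6 in npr1, against 80.4 and 66 in cpr5, 49.5 and 47.5 in cpr5npr1, 111 and 122 in cpr5scv1, and 46.5 and 43.3 in cpr5npr1svi1. It was called higher in cpr5 than in WT (adjusted p = 0.000103), in cpr5npr1 than in npr1 (adjusted p = 0.000332) and in cpr5scv1 and cpr5npr1svi1 than in WT (1.75e-05 and 0.000404), and these calls held without any 1 array. As with PAD4, its mean over the 12 arrays passed the filter only through the arrays with cpr5, and 3 of the 4 arrays without cpr5 were below background. Its cpr5npr1 arrays, at 49.5 and 47.5, were close, where those of PAD4 and SAG101 were not, a difference between genes that was not tested. Whether transcripts of EDS1 bind the same probes was not tested either.

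In the reception list, 2 of 17 genes were tested. AT4G26120 had 24.3 ± 2.09 in cpr5 and 12.5 ± 2.53 in WT (SD, n = 2 each; adjusted p = 0.264). It was called higher in the 4 genotypes with cpr5 than in the others (log2 difference 1.06, adjusted p = 0.0221), but not without WT replicate 2 (0.0629) or npr1 replicate 1 (0.106). In the response list 1 of 12 genes was tested, the transcription factor gene WRKY53. It had 182 ± 14.5 in cpr5scv1, 94 ± 16.6 in cpr5, 68.5 ± 0.646 in cpr5npr1, 78.7 ± 35.4 in cpr5npr1svi1, 29 ± 2.34 in WT and 27.8 ± 12.5 in npr1. WRKY53 was higher in the genotypes with cpr5 than in the others (log2 difference 1.81, adjusted p = 0.000137), which held without any 1 array. Its mean was highest in cpr5scv1, and it was not called between cpr5scv1 and cpr5 (adjusted p = 0.288, and 0.0677 with the replicate number as a block). It was also called higher in cpr5 than in WT (adjusted p = 0.0129), but not without WT replicate 1 (0.0558) or cpr5 replicate 2 (0.1). The modification list had 3 of 9 genes with a named probe set, and all 3 were too dim to be tested.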

How the data were processed

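RNA from the aerial parts of 12 plant samples in 6 genotypes was measured on ATH1 arrays. The authors deposited linear signal made with MAS5, per the submitters' processing notes. Its version and settings are not given in the sources. With the lowest and highest 2% left out, the mean was 100.01 in every array. Signal was used on a log2 scale with no pseudocount. The 64 control sets and the dimmest 30% of the other 22746 were left out, which left 15922. Tests used limma 3.58.1 in R 4.3.3, with moderated variances that follow the mean intensity. The 6 genotype means formed one model, with 6 residual and 4.65 prior degrees of freedom. This model assumes that a gene has the same spread in every genotype. Where spreads differ, SEs and intervals may be too narrow for the more variable genotypes and too wide for the others. Calls were made where the Benjamini-Hochberg adjusted p was below 0.05 over all probe sets within each of 11 comparisons, and within each of 15 genotype pairs for the order of genotypes. Every adjusted p comes from this model unless a setting or an omitted array is named. The procedure was tested on simulated data, in which a gene had the same spread in every genotype and replicate numbers did not pair arrays. That test does not cover unequal spreads or pairing.

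Background, set after the data were seen, was the 95th percentile of the signal of 27 bacterial control sets. Names come from the platform annotation, linked to a gene table of TAIR10.1: 13513 probe sets had 1 gene, 503 several and 8730 none, and 13436 were linked to a locus. The genes named are the 6 members, up to 4 called genes per list and comparison (up to 2 with values where none was called), and for each member the 3 named genes of most similar pattern. Where a gene had more than 1 probe set, the one with the highest mean was taken. Members and lists were chosen with earlier results of these data known. The number of arrays limits the precision. The sample titles give the replicate numbers. Over the 15 pairs of genotypes, the log2 ratios of replicate 1 to 2 had correlations from 0.175 to 0.363, all above 0.1, so the numbers pair arrays. The model has no term for this pairing, which enters as an alternative, the replicate block. Alternatives were quantile normalization, scaling to one median, a pseudocount of 32, no filter or one of 50%, no intensity trend, only the groups compared, the replicate number as a block, and leaving out each array.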

Additional observations from a re-analysis of the deposited data

How the results depend on the processing

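Of 1254 values of the 6 genes under other settings, 1170 kept their direction and their side of the threshold, 51 lost a call, 14 gained one and 19 changed sign; none of the 19 was called to begin with. Without single arrays, the number of genes called ran from 1 to 6 in cpr5 versus WT, from 2 to 5 in cpr5npr1 versus npr1 and from 3 to 6 in cpr5npr1 versus WT. With a filter of 50%, PAD4 and SAG101 were left out as too dim. Of the genes still tested, 3 were called in cpr5npr1 versus npr1 and 3 in cpr5npr1 versus WT. Of the 11373 probe sets then tested, 580 and 1054 were called in these comparisons. With only the groups compared, 1 was called in cpr5npr1 versus WT and 1 in cpr5scv1 versus cpr5. Of 15922 probe sets, 352 and 279 were called in these fits. In cpr5npr1 versus WT, ICS1 (adjusted p = 0.0535 in limma), EDS5 (0.0677), SAG101 (0.16) and AT5G52810 (0.117) were lost. The cause was not tested, beyond there being fewer arrays. With the replicate block, SAG101 was called in cpr5 versus WT (adjusted p = 0.0394) and in cpr5npr1svi1 versus WT (0.0441), AT5G52810 was called in the latter (0.0256), and no other call of the 6 genes changed. Over all probe sets the block raised the calls from 1387 to 2773 in cpr5 versus WT, 815 to 1649 in cpr5npr1 versus npr1, 1296 to 2574 in cpr5npr1 versus WT, 3565 to 5412 in cpr5scv1 versus WT, 1905 to 3404 in cpr5npr1svi1 versus WT, 128 to 605 in cpr5scv1 versus cpr5 and 183 to 632 in cpr5npr1svi1 versus cpr5npr1. With a pseudocount of 32, the log2 difference of GRX480 in npr1 versus WT was 0.03, and the interaction of EDS5 was 0.05.

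Sign changes under omitted arrays were found in these uncalled values. In npr1 versus WT the log2 difference ran from -0.57 to 0.16 for ICS1, -1.65 to 1.09 for GRX480 (npr1 replicate 1 below background) and -0.24 to 0.95 for AT5G52810. The interaction ran from -1.02 to 0.63 for EDS5, -2.21 to 0.53 for GRX480 and -1.08 to 0.11 for AT5G52810. In cpr5npr1 versus cpr5 the range was -0.01 to 1.67 for ICS1, -0.51 to 1.14 for EDS5, -0.44 to 1.48 for PAD4, -0.19 to 0.9 for SAG101 and -0.43 to 0.15 for AT5G52810. In cpr5npr1svi1 versus cpr5npr1 it was -1.18 to 0.5 for ICS1, -0.68 to 0.97 for EDS5 and -0.98 to 0.12 for SAG101. In cpr5scv1 versus cpr5 it was -0.03 to 0.18 for AT5G52810. PAD4 was below background in WT and npr1, so its npr1 effect and its interaction were left out here.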

Other observations

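Among the dim genes of the salicylic acid modification list, UGT76B1, a glycosyltransferase gene, was brightest in cpr5scv1, with 34.3 and 75.8. It had 6.64 and 37.1 in cpr5 and lay below the background of 7.76 in both arrays of WT, npr1 and cpr5npr1svi1; the cpr5npr1 arrays had 13.3 and 0.887. In the limma fit with no filter its adjusted p was 0.00944 in cpr5scv1 versus WT, 0.0744 in cpr5 versus WT and 0.83 in cpr5scv1 versus cpr5. BSMT1, a methyltransferase gene, had 24.2 and 27.5 in cpr5npr1svi1 and 11.5 and 41.4 in cpr5scv1, and no more than 23 in the other arrays, with an adjusted p of 0.427 in cpr5npr1svi1 versus WT. UGT74F1 lay between 1.58 and 12.4 in all 12 arrays.

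After its values were seen, GRX480 was compared between the cpr5 and cpr5scv1 arrays, which have functional NPR1, and the cpr5npr1 and cpr5npr1svi1 arrays. It ranged from 132 to 201 in the 4 arrays of the former and from 46.9 to 87.9 in the 4 of the latter, and 2.41% of all probe sets were separated in this direction. The log2 difference was 1.09 (SE 0.473, adjusted p = 0.462 in limma; 0.283 with the replicate block), so it was not called, in a comparison that called 0.22% of all probe sets higher. AT3G48080 was separated likewise, at 66 to 122 against 43.3 to 49.5 (0.98, SE 0.228, adjusted p = 0.121; 0.0434 with the replicate block). WRKY53 had overlapping arrays, at 82.2 to 192 against 53.7 to 104 (0.87, adjusted p = 0.192; 0.0371 with the replicate block). With the block, 1% of all probe sets were called higher. ICS1, EDS5, PAD4, SAG101 and AT5G52810 overlapped between these sets of arrays, with adjusted p from 0.566 to 0.98. The split was chosen from the GRX480 values, so its separation and p-values do not test that pattern. The sets also differ by scv1 and svi1, which cannot be told apart from npr1 here.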
